A study of Mus musculus with 10 samples.

Results

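IGKV7-33 is 1 of the 103 mouse Igkv gene segments that the Igk libraries of this study listed alone, as the only V gene of a clonotype. It was chosen because its share of clonotypes was lower in B-1a cells of Igll1-/- mice than in B-1a cells of wild-type (WT) mice. Its rows were those whose V gene, without the species prefix, was exactly IGKV7-33, and they came to 278 clonotypes of 44103 in all 6 Igk libraries, with 12428 reads. These 278 held 175 different pairs of J gene and CDR3, since some pairs recurred across libraries. A single allele of the gene was listed.

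The libraries were made by PCR from genomic DNA of sorted peritoneal cavity cells of C57BL/6 mice aged 6 to 8 weeks. The 3 groups with Igk libraries were B-1a cells of wild-type mice, B-1a cells of Igll1 knockout mice and B-2 cells of wild-type mice, each with 2 libraries of 5701 to 8652 clonotypes and 214000 to 288396 reads. No library held B-2 cells of Igll1-/- mice. The study's gates took B220lo CD5+ cells as B-1a and B220hi cells as B-2, and the knockout was germline, so that every cell of those mice lacked Igll1 throughout development. The labels did not say whether a library came from 1 mouse or from pooled mice, so the spread between replicates may be partly technical. A further 4 libraries held heavy chain rearrangements of WT and Igll1-/- B-1a cells and could not be joined to the light chains, cell by cell or clonotype by clonotype. The primers amplified rearranged V and J segments, so that the deleted Igll1 gene itself was not measured and the genotype could not be checked in these reads.

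An antibody light chain is built by joining a V segment to a J segment, and the joint forms CDR3, the loop that most often touches antigen. IGKV7-33 is the light chain V gene long known as Vκ22, which together with IGKJ5 and the heavy chain segment IGHV7-1 encodes the T15 natural antibody against phosphorylcholine, a component of bacterial cell walls and of dying cells. Antibodies of this kind are made largely by B-1a cells. Igll1 encodes λ5, a part of the surrogate light chain with which a new heavy chain forms the pre-B cell receptor, so Igll1-/- B cells develop without that receptor.

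The IGKV7-33 repertoire was carried by few CDR3s. The 5 clonotypes with the most reads over the 6 libraries, and the only other productive clonotype found in every library, are printed below as amino acids from the first to the last CDR3 residue, because the results turn on them. Clonotypes 6 and 8 were added after their values were seen, as the next in order of reads. A clonotype here is a V gene, a J gene and a CDR3, and it is numbered by its reads.
Clonotype 1, IGKJ5: AQFYSYPLT
Clonotype 2, IGKJ5: AQFYSYLT
Clonotype 3, IGKJ2: AQFYSYPLT
Clonotype 4, IGKJ2: AQFYSYPYT
Clonotype 5, IGKJ5: AQFYSYP
Clonotype 6, IGKJ5: AQFYSYPLLT
Clonotype 7, IGKJ5: AQFYSYPPT
Clonotype 8, IGKJ5: AQFYGYPLT

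IGKV7-33 was found most in WT B-1a cells, less in WT B-2 cells and least in Igll1-/- B-1a cells. It accounted for 76 of 7234 and 78 of 6963 clonotypes in the 2 WT B-1a libraries, for 16 of 5701 and 7 of 6940 in the Igll1-/- B-1a libraries, and for 54 of 8652 and 47 of 8613 in the WT B-2 libraries. As a share of clonotypes this was 1.05% and 1.12% in WT B-1a (mean 1.09% ± 0.0492, SD, n = 2), 0.281% and 0.101% in Igll1-/- B-1a (0.191% ± 0.127, n = 2) and 0.624% and 0.546% in WT B-2 (0.585% ± 0.0555, n = 2). The groups did not overlap. The Wilson 95% intervals of the WT B-1a libraries lay above those of all other libraries, with lower limits of 0.840% and 0.899% against an upper limit of 0.813% in WT B-2 replicate 1. That of Igll1-/- B-1a replicate 1, 0.173% to 0.455%, overlapped that of WT B-2 replicate 2, 0.411% to 0.725%. These intervals cover counting error only and take each clonotype as a separate draw, though many differed from another by 1 residue. Since the gene was chosen by its usage in these libraries, the separation of the intervals is no test of it. The spread between replicates was widest in Igll1-/- B-1a cells. The mean share in WT B-1a cells was 5.69 times that in Igll1-/- B-1a cells (10.8 without Igll1-/- B-1a replicate 1 and 3.87 without replicate 2) and 1.86 times that in WT B-2 cells.

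**Figure D1:**
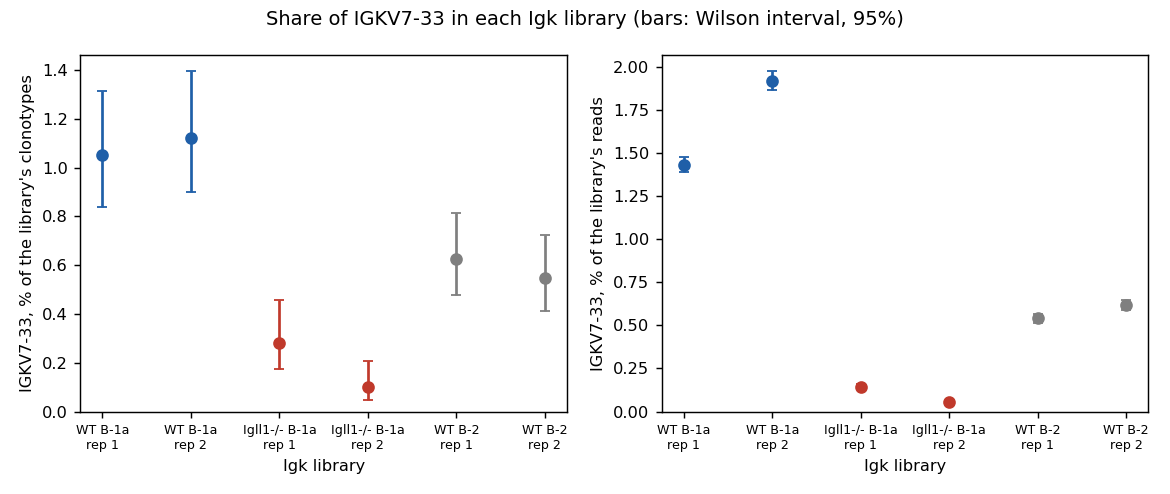
Share of IGKV7-33 in each of the 6 Igk libraries, as a percentage of clonotypes (left) and of reads (right), with Wilson 95% intervals as bars (blue, WT B-1a; red, Igll1-/- B-1a; grey, WT B-2). In both panels the WT B-1a libraries are highest and the Igll1-/- B-1a libraries lowest, from 0.101% to 1.12% of clonotypes and from 0.0539% to 1.92% of reads.

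The share of reads had the same order and a wider range. IGKV7-33 held 3934 and 4700 reads in WT B-1a cells (1.43% and 1.92% of reads), 310 and 148 reads in Igll1-/- B-1a cells (0.145% and 0.0539%), and 1557 and 1779 reads in WT B-2 cells (0.540% and 0.617%). The mean share of reads in WT B-1a cells was 16.8 times that in Igll1-/- B-1a cells and 2.89 times that in WT B-2 cells. The former was 31.0 without Igll1-/- B-1a replicate 1 and 11.6 without replicate 2. Among all Igkv genes ranked by clonotypes, IGKV7-33 stood 24th and 28th in WT B-1a, 60th and 76th in Igll1-/- B-1a, and 57th and 62nd in WT B-2. Because the reads came from PCR without molecular identifiers, cells of a clone and its amplification cannot be told apart in a read count.

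An edgeR quasi-likelihood fit on clonotype counts over 84 Igkv genes gave a log2 fold change of -2.53 (SE 0.50) for Igll1-/- B-1a against WT B-1a. It was -1.64 (SE 0.51) for Igll1-/- B-1a against WT B-2, and 0.89 (SE 0.44) for WT B-1a against WT B-2. The median over all 84 genes in the same order of contrasts was -0.17, -0.49 and -0.22. These values are a description and were not tested, since the gene was chosen by its usage in these libraries. The value for Igll1-/- B-1a against WT B-1a was -1.95 to -3.41 when 1 library was left out, and -4.07 when reads were counted in place of clonotypes.

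The reads of IGKV7-33 lay mostly in clonotype 1. It had 3390 and 4240 reads in WT B-1a cells, 17 and 133 in Igll1-/- B-1a cells, and 1145 and 1398 in WT B-2 cells. It was thus the largest IGKV7-33 clonotype in 5 of the 6 libraries, with 86.2% and 90.2% of the gene's reads in WT B-1a, 89.9% in Igll1-/- B-1a replicate 2, and 73.5% and 78.6% in WT B-2. In Igll1-/- B-1a replicate 1 it held only 5.48% of them. Among all Igk clonotypes of a library, whatever their V gene, it ranked 11th and 6th in WT B-1a, 47th and 37th in WT B-2, and 579th and 221st in Igll1-/- B-1a.

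As a share of all reads of its library, clonotype 1 took 1.23% and 1.73% in WT B-1a (mean 1.48% ± 0.352, SD, n = 2), 0.00794% and 0.0485% in Igll1-/- B-1a (0.0282% ± 0.0287, n = 2), and 0.397% and 0.485% in WT B-2 (0.441% ± 0.0621, n = 2). All 3 groups were apart in both replicates. The mean in WT B-1a was 52.5 times that in Igll1-/- B-1a and 3.36 times that in WT B-2. The Igll1-/- replicates were unlike, with an SD as large as their mean, so the size of the first ratio is loosely set, at 30.6 without Igll1-/- B-1a replicate 1 and 186 without replicate 2.

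Clonotype 2 lacks the proline that precedes the last pair of residues in clonotype 1, and it is 1 residue shorter. It had 278 reads in Igll1-/- B-1a replicate 1, none in Igll1-/- B-1a replicate 2, and 1, 0, 1 and 0 reads in the WT B-1a and WT B-2 libraries in order of replicate. It made up 89.7% of the gene's reads in the library where it was large, and it ranked 110th among all clonotypes there. That library therefore owed its higher share of IGKV7-33 reads to a clonotype that the other 5 libraries held at 1 read or not at all. Without clonotypes 1 and 2, the gene kept 15 reads in each Igll1-/- library (0.00701% and 0.00547% of reads), against 543 and 460 in WT B-1a (0.197% and 0.188%) and 411 and 381 in WT B-2 (0.143% and 0.132%). The Igll1-/- libraries were below the other 4, which is a description and no separate check of the usage that chose the gene. The reads that remain include IGKJ5 clonotypes 1 residue away from clonotype 1. These held 257 and 308 reads in WT B-1a, 2 and 12 in Igll1-/- B-1a, and 59 and 81 in WT B-2. Clonotypes that were large in a single WT library were also kept.

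The other large clonotypes were shared unevenly. Clonotype 3 has the letters of clonotype 1 with IGKJ2 as its listed J gene, and it had 80 and 93 reads in WT B-1a, 1 and 0 in Igll1-/- B-1a, and 90 and 14 in WT B-2. The same letters were also listed with IGKJ1, IGKJ3 and IGKJ4, at 4, 2 and 1 reads over all libraries. The IGKJ2 listed for clonotype 3 could not be checked, since no nucleotide sequence was used. Clonotype 4, also IGKJ2, had 28 and 2 reads in WT B-1a, none in Igll1-/- B-1a, and 185 and 31 in WT B-2. Its WT B-2 counts were above those of WT B-1a in both replicates, the opposite order to clonotype 1.

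Clonotype 5 was found only in WT B-1a replicate 1, with 146 reads. Clonotype 6 had 3 and 141 reads in WT B-2 and none elsewhere. Both were thus large in 1 library and absent or almost absent from its replicate, as clonotype 2 was. Clonotype 7 differs from clonotype 1 by L8P, counted from the first CDR3 residue with the residue of clonotype 1 first, and had 23 and 64 reads in WT B-1a, 1 and 1 in Igll1-/- B-1a, and 6 and 5 in WT B-2. Clonotype 8 (S5G) had 40 and 25, 0 and 10, and 6 and 6 reads in the same order. Both of these stood highest in WT B-1a, as clonotype 1 did.

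**Figure D2:**
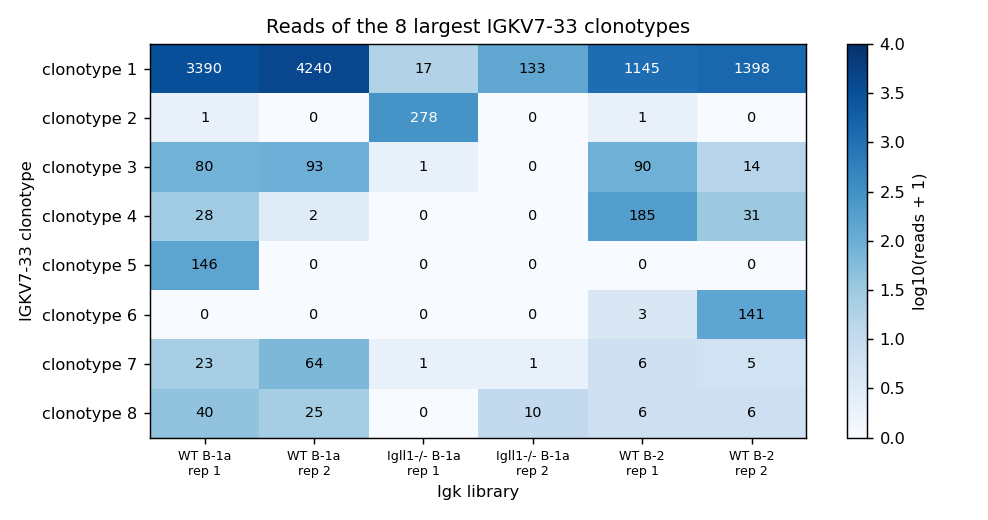
Reads of the 8 largest IGKV7-33 clonotypes (rows) in the 6 Igk libraries (columns), printed in each cell and coloured on a log10(reads + 1) scale. Clonotype 1 has 1145 reads or more in the 4 WT libraries and 17 and 133 in the Igll1-/- libraries, while clonotypes 2, 5 and 6 are large in 1 library each.

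Most IGKV7-33 clonotypes were small. Clonotypes with 1 read made up 41 of 76 and 43 of 78 in WT B-1a, 13 of 16 and 5 of 7 in Igll1-/- B-1a, and 34 of 54 and 23 of 47 in WT B-2. Only 11 and 12, 2 and 2, and 5 and 8 had 10 reads or more. The mean number of reads per clonotype was 51.8 and 60.3 in WT B-1a, above the 33.3 to 39.5 for all Igkv genes together. It was 19.4 and 21.1 in Igll1-/- B-1a, below that range, and 28.8 and 37.9 in WT B-2.

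Whether IGKV7-33 clonotypes were listed as productive did not enter the choice of the gene, and could be tested. Productive clonotypes numbered 71 of 76 and 66 of 78 in WT B-1a (93.4% and 84.6%), 14 of 16 and 7 of 7 in Igll1-/- B-1a (87.5% and 100%), and 50 of 54 and 42 of 47 in WT B-2 (92.6% and 89.4%). The groups overlapped, and the shares lay around the 86.4% to 88.6% of all Igkv genes. In Igll1-/- B-1a replicate 2, where all 7 clonotypes were productive, the Wilson 95% interval still reached down to 64.6%.

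The odds of being productive did not pass the test in either contrast. In the edgeR quasi-likelihood fit with Benjamini-Hochberg adjustment over 84 genes, the log2 odds ratio was 0.25 (SE 0.75, 95% interval -1.23 to 1.74, adjusted p = 0.923) for Igll1-/- B-1a against WT B-1a. It was -0.31 (SE 0.67, -1.63 to 1.01, adjusted p = 0.906) for WT B-1a against WT B-2. Over all genes 3 of 84 (3.57%) were called in the first contrast and 1 of 84 (1.19%) in the second. The intervals are wide and include changes of more than 2-fold in odds. They rest on a spread pooled over all genes (252 degrees of freedom), and so do not hold the gene's own spread between replicates. Of the 28 unproductive clonotypes, 27 carried a stop codon in the CDR3 and 0 carried a frameshift mark. The test thus bears on stop codons more than on reading frame. Among the unproductive clonotypes were 3 different ones that differed from clonotype 1 by 1 residue. Unproductive clonotypes held few reads, since 97.2% to 100% of the gene's reads were productive.

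IGKV7-33 was joined mainly to IGKJ5, the J segment farthest from the V genes. IGKJ5 was listed for 67 of 76 and 65 of 78 clonotypes in WT B-1a (88.2% and 83.3%), for 14 of 16 and 6 of 7 in Igll1-/- B-1a (87.5% and 85.7%), and for 37 of 54 and 40 of 47 in WT B-2 (68.5% and 85.1%). In every library this was above the share over all Igkv genes, 46.1% to 51.7%. The IGKJ5 counts include clonotypes 1 residue away from clonotype 1, which carry its J gene by definition. These numbered 41 and 42 in WT B-1a, 2 and 3 in Igll1-/- B-1a, and 26 and 26 in WT B-2. In Igll1-/- B-1a replicate 1, a further 9 of the 14 IGKJ5 clonotypes differed from clonotype 2 by 1 residue. Such near copies may not all be separate joins. In WT B-2 replicate 1, 26 of the 37 IGKJ5 clonotypes were near copies, and those left were fewer than its 14 with IGKJ2. Its excess of IGKJ5 by clonotypes thus rested on near copies. Whether the excess holds without them in the other libraries was not tested. IGKJ2 came next, with 5 and 7, 1 and 0, and 14 and 5 clonotypes in the same order, and WT B-2 replicate 1 stood out with 14. By reads, IGKJ5 held 97.1% and 97.4% of the gene in WT B-1a, 99.4% and 99.3% in Igll1-/- B-1a, and 78.1% and 91.9% in WT B-2.

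The use of downstream J segments (IGKJ4 or IGKJ5) against upstream ones (IGKJ1 or IGKJ2) was tested in the same kind of fit, here with 10.5 degrees of freedom. The counts were 67 to 8 and 67 to 9 in WT B-1a, 14 to 2 and 7 to 0 in Igll1-/- B-1a, and 37 to 17 and 40 to 7 in WT B-2. The log2 odds ratio was 0.30 (SE 0.80, 95% interval -1.46 to 2.06, edgeR adjusted p = 0.864) for Igll1-/- B-1a against WT B-1a. For WT B-1a against WT B-2 it was 1.26 (SE 0.63, -0.13 to 2.64, adjusted p = 0.426), and it fell to 0.47 without WT B-2 replicate 1. Neither passed the threshold. Over all genes 4 of 84 (4.76%) were called in the first contrast and 0 of 84 (0%) in the second, where edgeR gave an unadjusted p under 0.05 for 10 genes.

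**Figure D3:**
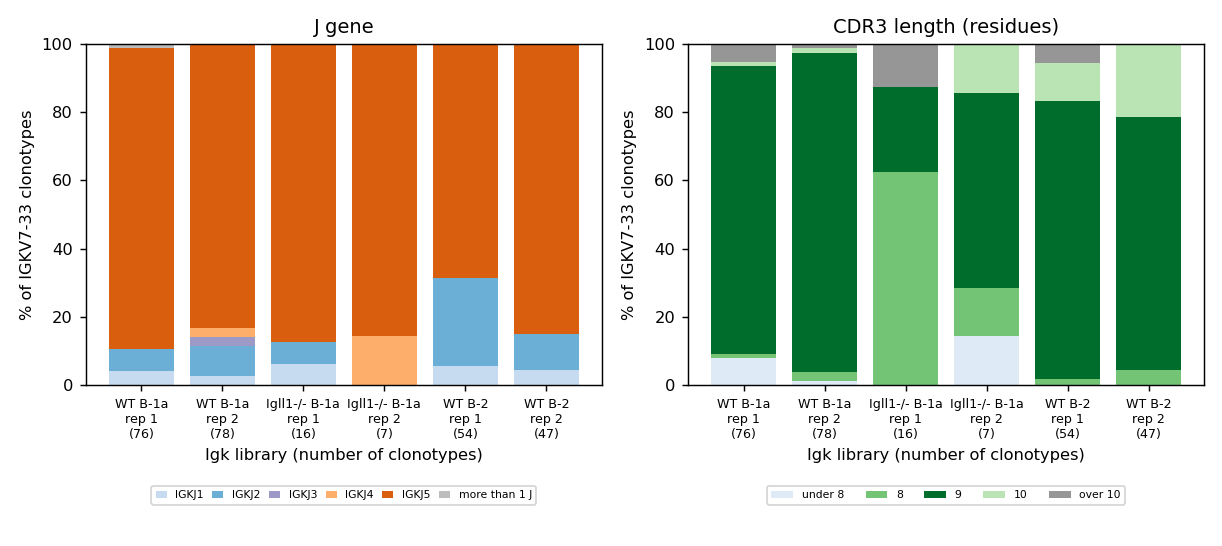
J gene (left) and CDR3 length in residues (right) of the IGKV7-33 clonotypes of each Igk library, as stacked percentages, with the number of clonotypes in parentheses. IGKJ5 makes up 68.5% to 88.2% of every library, and a CDR3 of 9 residues makes up 74.5% to 93.6% of the WT libraries and 25.0% and 57.1% of the Igll1-/- libraries.

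CDR3 length differed most in Igll1-/- B-1a replicate 1. A CDR3 of 9 residues, the length of clonotype 1, was found in 64 of 76 and 73 of 78 clonotypes in WT B-1a (84.2% and 93.6%), in 4 of 16 and 4 of 7 in Igll1-/- B-1a (25.0% and 57.1%), and in 44 of 54 and 35 of 47 in WT B-2 (81.5% and 74.5%). Over all Igkv genes the share was 72.2% to 79.6%. Counted over all clonotypes, the Igll1-/- libraries were below all the others, and the WT B-1a libraries were above the WT B-2 libraries. With 2 libraries a group, the exact 2-sided permutation test gave p = 0.333 for both contrasts, which is the smallest p it can give, so the design could not pass a threshold of 0.05. Length was chosen for description after the values were seen.

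The low share in Igll1-/- B-1a replicate 1 came with clonotype 2. That library had 10 clonotypes of 8 residues, of which 9 differed from clonotype 2 by 1 residue and shared its J gene. WT B-1a had 1 and 2 clonotypes of 8 residues, Igll1-/- B-1a replicate 2 had 1, and WT B-2 had 1 and 2. In Igll1-/- B-1a replicate 2, which lacked clonotype 2, 98.0% of the gene's reads had 9 residues, against 6.45% in replicate 1, 96.0% and 99.4% in WT B-1a, and 96.0% and 87.5% in WT B-2. Among clonotypes of at least 2 reads, the share of 9 residues was 100% in Igll1-/- B-1a replicate 2, above the 79.2% to 97.1% of the WT libraries, and 33.3% in replicate 1. Under these counts, therefore, replicate 1 alone was low. The shares at 2 reads or more rest on very few Igll1-/- clonotypes, since 13 of 16 in replicate 1 and 5 of 7 in replicate 2 had 1 read. Clonotypes of 10 residues were 1 and 1 in WT B-1a, 0 and 1 in Igll1-/- B-1a, and 6 and 10 in WT B-2.

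Many small clonotypes were near copies of clonotype 1. Of 99 different IGKJ5 clonotypes with 9 residues, 59 differed from clonotype 1 by 1 residue. They made up 41 and 42 of the gene's clonotypes in WT B-1a (53.9% and 53.8%), 2 and 3 in Igll1-/- B-1a (12.5% and 42.9%), and 26 and 26 in WT B-2 (48.1% and 55.3%). Their reads came to 7.58% and 7.26%, 11.8% and 9.02%, and 5.15% and 5.79% of the reads of clonotype 1 in the same libraries. The number of near copies thus moved with the reads of clonotype 1, and the part of sequencing or PCR error in them was not tested.

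The changes were spread over the whole CDR3. The 9 positions, from the first, held 7, 6, 8, 6, 5, 9, 6, 7 and 5 different substitutions. Position 8 had the most reads (132), of which 100 were L8P, and position 5 came next (121), of which 87 were S5G. After these, T9A had 69 reads, F3L 53 and Y6H 38. Of the 59 near copies, 56 were productive, 29 were found in both WT B-1a libraries and 4 in an Igll1-/- library.

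**Figure D4:**
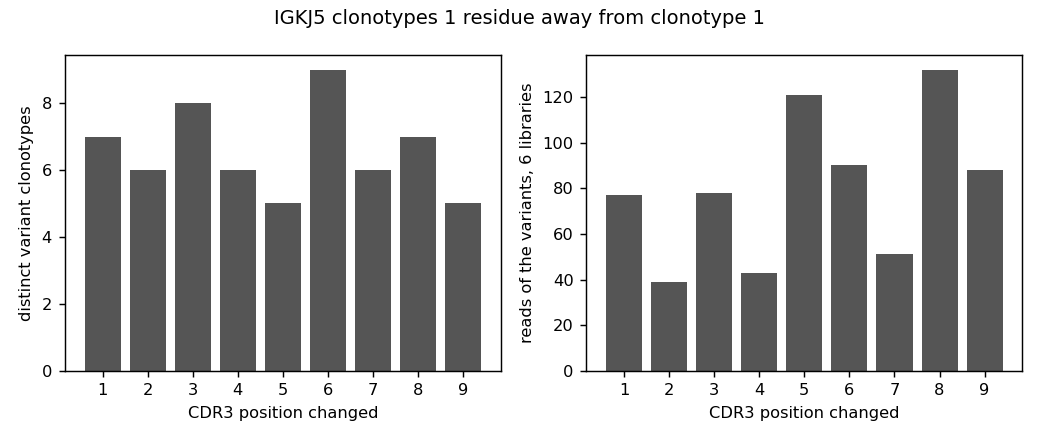
Substitutions in the 59 IGKJ5 clonotypes that differ from clonotype 1 by 1 residue, by CDR3 position, as the number of different clonotypes (left) and as reads summed over the 6 libraries (right). Each position has 5 to 9 variants, and positions 5 and 8 have the most reads, 121 and 132.

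Merging each small clonotype into one with 10 times its reads or more that differed by 1 residue left 28 and 33 IGKV7-33 clonotypes in WT B-1a, 5 and 4 in Igll1-/- B-1a, and 20 and 12 in WT B-2. The shares of clonotypes were then 0.874% and 1.04%, 0.197% and 0.127%, and 0.558% and 0.333%. The order of the groups was as before, with the mean in WT B-1a 5.90 times that in Igll1-/- B-1a and 2.14 times that in WT B-2. Merging removed 42.9% to 74.5% of the gene's clonotypes, against 54.2% to 58.6% over all Igkv genes.

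Most IGKV7-33 clonotypes were found in a single library. Of the 175 different IGKV7-33 clonotypes, 126 (72.0%) were found in 1 library, 22 in 2, 6 in 3, 17 in 4, 2 in 5 and 2 in all 6. Over all Igkv genes 69.7% were found in 1 library and 3.84% in all 6, against 1.14% for IGKV7-33. Those in all 6 were clonotypes 1 and 7. The 2 WT B-1a libraries shared 34 clonotypes, which were 44.7% and 43.6% of the clonotypes of each and held 95.02% and 98.4% of the gene's reads. The WT B-2 libraries shared 22 (40.7% and 46.8%), and the Igll1-/- B-1a libraries shared 3 (18.8% and 42.9%). Over all Igkv genes the shared parts were 38.7% and 40.1%, 40.2% and 40.6%, and 35.8% and 29.3% in the same order.

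Of the 20 clonotypes found in an Igll1-/- library, 7 were also found in a WT B-1a library and 13 in no WT library. The 9 clonotypes of Igll1-/- B-1a replicate 1 that differed from clonotype 2 by 1 residue were all among the 13, at 1 or 2 reads. They may not all be separate joins. Each WT B-1a library held 25.0% of the clonotypes of Igll1-/- B-1a replicate 1, against 34.2% and 35.2% over all Igkv genes. For replicate 2 these were 57.1% and 42.9%, against 32.0% and 32.3%. WT B-1a libraries together held 120 clonotypes and WT B-2 libraries 79, of which 37 were common, 30.8% of the former and 46.8% of the latter. There were 21 clonotypes in all 4 WT libraries, and 17 of these were in neither Igll1-/- library. The Igll1-/- libraries held 310 and 148 reads of the gene, so the absence of a clonotype that was small in the WT libraries cannot be read as its loss.

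The identity of the V segment to its germline gene was close across groups. The median over IGKV7-33 clonotypes was 91.9% and 90.5% in WT B-1a, 89.5% and 91.5% in Igll1-/- B-1a, and 90.7% and 91.4% in WT B-2. Over all Igkv genes it was 92.7% to 93.3%. The sequence that stood for clonotype 1 had 100% identity in all 4 WT libraries, and 97.8% and 96.9% in the Igll1-/- libraries. Clonotype 1 had 17 and 133 reads in the Igll1-/- libraries, against 1145 to 4240 in the WT libraries. The value belongs to 1 listed sequence a clonotype and not to its reads as a whole, and no test was made. Many clonotypes had 1 read, and the part of PCR or sequencing error in these values was not tested.

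The gene's pattern was set against that of other Igkv genes by Pearson's r over the 6 libraries, on log2 clonotype counts scaled to library size. The most alike of 83 genes were IGKV1-122 (r = 0.935), IGKV12-89 (0.912), IGKV14-126 (0.894), IGKV3-5 (0.874) and IGKV8-28 (0.870). The 6 points are 3 groups of 2, and all genes share the libraries and their totals, so these are a description. IGKV1-122 had 0.719% and 0.445% of clonotypes in WT B-1a, 0.175% and 0.0576% in Igll1-/- B-1a, and 0.370% and 0.569% in WT B-2. Its WT groups overlapped, unlike those of IGKV7-33. IGKV12-89 had 0.899% and 0.661%, 0.193% and 0.173%, and 0.381% and 0.313% in the same order, and IGKV3-5 had 0.539% and 0.689%, 0.246% and 0.202%, and 0.266% and 0.372%. Both were lowest in Igll1-/- B-1a and highest in WT B-1a.

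**Figure D5:**
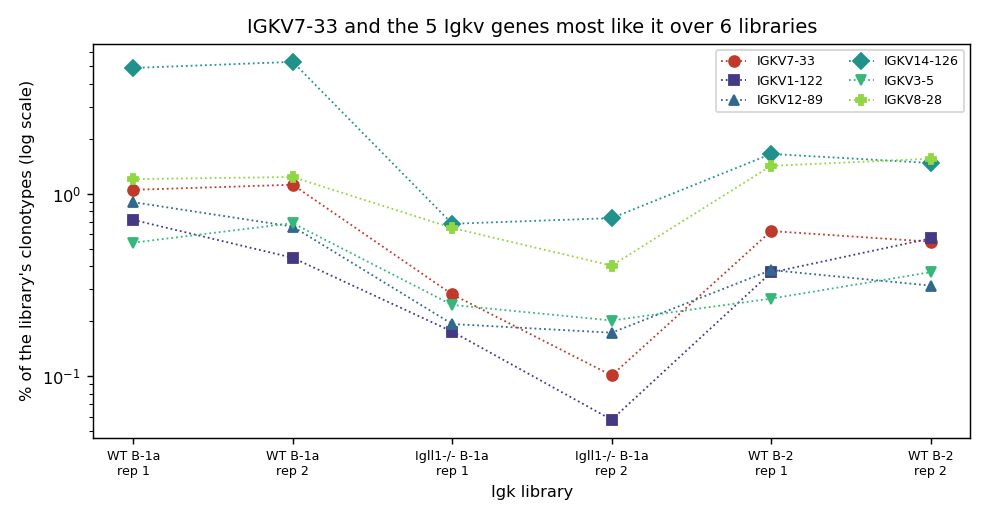
Share of clonotypes on a log scale in the 6 Igk libraries for IGKV7-33 and the 5 Igkv genes with the highest Pearson r to it, with dotted lines joining the values of a gene. Every one of the 6 genes is lower in both Igll1-/- B-1a libraries than in any WT library, and IGKV8-28 alone is higher in both WT B-2 libraries than in both WT B-1a libraries.

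The other light chain genes of antibodies against phosphorylcholine did not all share that pattern. IGKV8-28, used by antibodies of the McPC603 family, had 1.20% and 1.24% of clonotypes in WT B-1a, 0.649% and 0.403% in Igll1-/- B-1a, and 1.42% and 1.56% in WT B-2. It was lowest in Igll1-/- B-1a and, unlike IGKV7-33, highest in WT B-2. IGKV2-137, used by the M167 family, had 0.456% and 0.589%, 0.544% and 0.476%, and 0.543% and 0.650%, so its groups overlapped (r = 0.255 with IGKV7-33).

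Both light chain genes of anti-phosphatidylcholine B-1a cells served to check the sorted cells. IGKV4-91, which pairs with VH12, had 6.54% and 6.03% of clonotypes in WT B-1a, 2.77% and 3.17% in Igll1-/- B-1a, and 1.44% and 1.30% in WT B-2, so that both B-1a groups were above B-2. IGKV14-126, which pairs with VH11, had 4.89% and 5.29%, 0.684% and 0.735%, and 1.65% and 1.47%. It was higher in WT B-1a than in B-2 but lower in Igll1-/- B-1a than in B-2, so this marker did not mark the Igll1-/- libraries as B-1a. The primers included ones for B-1a-biased segments such as IGKV4-91, which bears on levels between genes. Whether the primers also affected the share of 1 gene between libraries was not tested.

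IGHV7-1, the heavy chain segment of the T15 antibody, was close to absent from the separate heavy chain libraries. It was listed for 7 and 1 clonotypes of 55129 and 49809 in WT B-1a, and for 2 and 6 of 32386 and 58205 in Igll1-/- B-1a. These groups overlapped, and no difference was detectable at this depth. Per the methods, the Igh primers were adapted from a published set, with primers added for some V genes. How well they amplified IGHV7-1 was not tested, so its low counts cannot be read as a lack of the segment in the cells.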

How the data were processed

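Rearranged V and J segments were amplified by PCR from genomic DNA of sorted cells, and products of 100 to 280 bp were selected for the 6 Igk libraries. The Igk primers were a degenerate V primer and added primers for some B-1a-biased segments, so levels between V genes depend on the primers. The Igk labels name MiSeq, whereas the study's methods name another instrument. Per the methods, the authors assigned V and J genes and clonotypes with IMGT/HighV-QUEST. No genome build was given in the sources used here, so no coordinates are printed.

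The deposited tables hold a row for each clonotype with its V gene, J gene, CDR3, functionality and read count, and the read counts were used as deposited. The deposited percent identity of a clonotype's V segment to its germline gene belongs to a representative sequence. The authors removed no PCR duplicates by molecular identifiers, and intervals and detection limits cover counting error only. A count of 0 allowed up to 3 clonotypes, or 0.0347% to 0.0526% of a library.

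Clonotypes listed with more than 1 V gene were left out of the gene counts. Clonotypes were counted once each, and a gene was fitted where 2 libraries or more held 10 or more of its clonotypes each, with edgeR 4.0.16 in R 4.3.3 (quasi-likelihood fit, total clonotypes as library size, all 6 Igk libraries in a single fit). Odds within a gene were fitted with 1 term per library, and p-values were adjusted by Benjamini-Hochberg over 84 genes with a threshold of 0.05. With DESeq2 1.42.0 as an alternative, other choices tried were reads in place of clonotypes, clonotypes of at least 2 or 10 reads, merging, productive clonotypes only, other normalization, no filter, a replicate block and leaving out each library. The fits were also run on simulated data. The spread between simulated replicates was not matched to that of these libraries, so those runs do not show how the fits behave at that spread.

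The gene, the lists and the tests were chosen with earlier results of these data known. Named besides IGKV7-33 were the 5 genes of highest Pearson r with it (prior count 2), IGKV8-28 and IGKV2-137, IGHV7-1, and IGKV4-91 and IGKV14-126. Named clonotypes were the 5 with the most reads, the largest of each library and the productive ones in all 6 libraries. The replicates of a group were farther apart than counting error allows in a chi-square test of clonotype counts over V genes (301 with 101 degrees of freedom in WT B-1a, 780 with 101 in Igll1-/- B-1a and 164 with 102 in WT B-2), so each library was counted as a sample.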

Additional observations from a re-analysis of the deposited data

How the results depend on the processing

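Lower use of IGKV7-33 in Igll1-/- B-1a than in WT B-1a cells kept its direction under every alternative run. The log2 fold change of -2.53 was -4.07 with reads in place of clonotypes and -3.59 with clonotypes of at least 2 reads, and -3.41 to -1.95 with 1 library left out. Against WT B-2 it was -2.63 to -0.93, and -2.52 to -1.06 with 1 library left out. For WT B-1a against WT B-2 the value of 0.89 was 1.53 with reads, 1.22 with clonotypes of at least 10 reads, 1.09 with near-identical clonotypes merged, 1.09 with TMM normalization and 1.19 with DESeq2, and 0.80 to 0.99 with 1 library left out. No alternative brought either odds ratio of the gene past the threshold.

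The small odds ratios changed sign. The productive odds ratio of Igll1-/- B-1a against WT B-1a was -0.067 with clonotypes of at least 10 reads, and -0.54 (without WT B-1a replicate 2) to 2.84 with 1 library left out (-0.26 without Igll1-/- B-1a replicate 2). That of WT B-1a against WT B-2 was 1.80 with reads and 1.83 with clonotypes of at least 10 reads, and -0.87 to 0.48 (without WT B-1a replicate 2) with 1 library left out. The downstream J odds ratio of Igll1-/- B-1a against WT B-1a was -0.22 with merging, 2.70 with reads, and -0.23 (without Igll1-/- B-1a replicate 2) to 2.87 with 1 library left out. Igll1-/- B-1a replicate 2 had 0 unproductive and 0 upstream J clonotypes, so values that rest on it alone depend on the prior count. The downstream J odds ratio of WT B-1a against WT B-2 was 0.47 to 1.85 with 1 library left out. It was up to 2.50 with reads and 3.30 with clonotypes of at least 10 reads. The edgeR adjusted p was 0.0983 to 0.563 over the alternatives that kept all libraries. When a group was left with 1 library, it was taken to vary like the other groups. The cause of these changes was not tested.

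The 3 genes called for productive odds in Igll1-/- B-1a against WT B-1a became 0 with clonotypes of at least 2 or 10 reads, merging, several V genes counted, the replicate block or crossed numbers, and 0 to 2 with 1 library left out. The 1 gene of WT B-1a against WT B-2 became 0 with clonotypes of at least 2 or 10 reads, merging or crossed numbers, and 0 to 1 with 1 library left out. For downstream J odds, the 4 genes of the first contrast became 0 with reads, 7 with no filter, and 0 to 2 with 1 library left out, and the 0 genes of the second became 1 with merging, 3 with no filter, 2 with productive clonotypes only, and stayed 0 with 1 library left out.

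Libraries with the same replicate number did not deviate together (correlations of -0.21 to 0.09). With the replicate block, usage was -2.58 for Igll1-/- B-1a against WT B-1a, -1.67 against WT B-2, and 0.91 for WT B-1a against WT B-2. The productive odds ratios were 0.09 and -0.27 and the downstream J odds ratios 0.47 and 1.22 under the block, on the same side of the threshold as without it.

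The difference in the share of 9-residue CDR3s between Igll1-/- B-1a and WT B-1a, -47.8 percentage points, was -47.4 to -29.0 under alternatives added after seeing the data, and -63.9 to -31.8 with 1 library left out. By reads and with clonotypes of at least 2 reads, Igll1-/- B-1a replicate 1 alone carried it. That between WT B-1a and WT B-2, 10.9 points, was 23.3 with merging. The 16 and 7 clonotypes of the Igll1-/- libraries limit every share within the gene there.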

Other observations

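The V genes that lie next to IGKV7-33 in the order of the RefSeq annotation, chosen after their values were seen, did not move as a group. IGKV8-34 had 0.180% and 0.474% of clonotypes in WT B-1a, 0.912% and 0.634% in Igll1-/- B-1a, and 0.474% and 0.406% in WT B-2. IGKV6-32 had 0.456% and 0.531%, 0.702% and 0.648%, and 0.959% and 0.639%, and IGKV8-30 had 5.32% and 3.73%, 7.12% and 5.99%, and 3.44% and 3.07%. These 3 were higher in both Igll1-/- B-1a libraries than in both WT B-1a libraries, whereas IGKV7-33 was lower. The other 3 neighbours were rare. IGKV1-35 had 10 and 6 clonotypes in WT B-1a, 0 and 4 in Igll1-/- B-1a, and 5 and 4 in WT B-2, and IGKV6-29 had 4 and 8, 1 and 0, and 7 and 3, so both were lower in the Igll1-/- libraries than in the WT B-1a libraries, as IGKV7-33 was. IGKV18-36 had 4 and 1, 0 and 1, and 4 and 3. Of 103 listed genes, 100 matched the annotation.

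The CDR3 letters of clonotype 1 were also listed under other V genes, with 2 and 8 clonotypes in WT B-1a (2 and 18 reads), 0 and 1 in Igll1-/- B-1a (0 and 1 reads), and 1 and 1 in WT B-2 (1 and 1 reads). In WT B-1a replicate 2, 1 further clonotype with 1 read was listed as either IGKV7-33 or IGKV8-19 and was not counted.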
